A study of Mus musculus with 9 samples.

Results

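The 10 genes described here encode chaperones and folding enzymes of the endoplasmic reticulum (ER) and parts of the unfolded protein response: Hspa5, Hsp90b1, Calr, Canx, Pdia3, Pdia4, Pdia6, Herpud1, Xbp1 and Manf. They were chosen by symbol, each matched 1 row of the 14912 genes in the deposited table, and all 10 were among the 10983 genes that passed the filter on low values and were tested. Bulk RNA of mouse CD4+ T cells was sequenced by a modified CELSeq protocol, in which reads come from the 3′ end of each polyadenylated RNA. The cells came from the strain B6.Cg-Foxp3tm2(EGFP)Tch/J, labelled hemizygous for Foxp3<tm2Tch>, in which cells that express Foxp3, the transcription factor of regulatory T cells, carry an enhanced green fluorescent protein (eGFP) reporter. All 3 groups share that strain and allele. Day 0 cells were Foxp3 eGFP- CD4+ T cells (3 libraries). TGFβ-iTreg cells were CD4+ Foxp3 eGFP+ cells taken on day 5, after IL-2 (300 U/ml), TGFβ (10 ng/ml) and stimulating anti-CD3 and anti-CD28, each at 1 µg/ml (3 libraries). mTO-iTreg cells were CD4+ Foxp3 eGFP+ cells on day 5 of co-culture with mouse colorectal cancer tumour organoids, under the same antibody stimulation with IL-2 at 20 U/ml, and no added TGFβ is listed for them (3 libraries). The organoids are not further specified in the labels, IL-2 differed between the 2 induced groups, and animal ages were not given.

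The ER folds and modifies proteins that are secreted or inserted into membranes. Hspa5 (also called BiP or GRP78) and Hsp90b1 (GRP94) are its HSP70 and HSP90 chaperones, Calr and Canx are lectins that hold glycoproteins while they fold, and the Pdia enzymes form and rearrange disulfide bonds. When unfolded proteins build up, the sensors IRE1 (gene Ern1), ATF6 and PERK (gene Eif2ak3) are released: IRE1 splices Xbp1 mRNA into the form that encodes the active transcription factor, ATF6 is cut to release another, and PERK slows translation and favours that of ATF4. Genes induced through XBP1 and ATF6 include Hspa5, Herpud1, a membrane protein of ER-associated degradation, and Manf, a small secreted protein that binds Hspa5. In T cells this machinery supports the output of surface receptors and cytokines after activation.

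Much of the induction of these chaperones is known to pass through the ER stress response element (ERSE) in their promoters, so the promoters are printed here to set the genes' behaviour against what they carry. The 9 genes with an entry in the RefSeq promoter set (GRCm38.p6, 250 bases before to 50 bases after the start) were searched on both strands for ERSE (CCAAT, then 9 bases of any kind, then CCACG), for ERSE-II (ATTGG, then 1 base of any kind, then CCACG) and for the core of the unfolded protein response element, TGACGTGG. ERSE stood in 5 of the 9 windows (Hspa5, Hsp90b1, Calr, Canx and Pdia6) and in 39 of all 32851 windows (0.119%). ERSE-II stood in 1 of the 9, Herpud1, and in 12 of all windows (0.0365%). The third motif was in none of the 9 and in 222 of all windows (0.676%). Pdia3, Pdia4 and Xbp1 held no exact match to any of the 3 in these windows. Variants with other letters were not searched, so a window without a match may still hold such a variant. CCAAT by itself stood in 8 of the 9 windows and CCACG in 7, beside 37.4% and 32.8% of all windows. Pdia4 held both. Hsp90b1 held 2 ERSE copies, 1 on each strand. Sequences are on the gene's strand, 5′ to 3′, and capitals mark the match, which reads in reverse complement for Calr and for the second copy of Hsp90b1. The stretch of Pdia4, which holds no exact match, is shown beside them.
Hspa5 (chr2:34771890-34772089, plus strand, 200 to 1 bases before the start): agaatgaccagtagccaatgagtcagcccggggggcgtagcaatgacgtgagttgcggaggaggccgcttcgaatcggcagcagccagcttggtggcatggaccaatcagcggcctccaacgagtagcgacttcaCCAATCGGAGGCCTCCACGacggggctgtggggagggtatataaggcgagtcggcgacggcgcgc
Hsp90b1 (chr10:86705513-86705676, minus strand, 232 to 69 bases before the start): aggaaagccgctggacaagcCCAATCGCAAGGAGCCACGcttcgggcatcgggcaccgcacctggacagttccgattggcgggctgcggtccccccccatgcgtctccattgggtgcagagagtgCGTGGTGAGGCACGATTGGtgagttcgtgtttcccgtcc
Pdia6 (chr12:17266471-17266529, plus strand, 118 to 60 bases before the start): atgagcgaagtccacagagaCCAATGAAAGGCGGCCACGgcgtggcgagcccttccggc
Herpud1 (chr8:94386357-94386407, plus strand, 72 to 22 bases before the start): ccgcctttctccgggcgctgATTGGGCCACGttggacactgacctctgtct
Calr (chr8:84847055-84847113, minus strand, 182 to 124 bases before the start): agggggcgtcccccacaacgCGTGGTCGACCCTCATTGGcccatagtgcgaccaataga
Canx (chr11:50325780-50325838, minus strand, 165 to 107 bases before the start): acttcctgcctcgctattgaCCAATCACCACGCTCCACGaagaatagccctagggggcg
Pdia4 (chr6:47813513-47813712, minus strand, 200 to 1 bases before the start): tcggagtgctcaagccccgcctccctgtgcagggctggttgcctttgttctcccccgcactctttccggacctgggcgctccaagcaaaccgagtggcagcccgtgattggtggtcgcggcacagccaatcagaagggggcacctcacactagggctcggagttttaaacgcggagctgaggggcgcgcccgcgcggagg
GENCODE M21 places the start of several of these genes at other bases than RefSeq does, and a match of letters is a description, not a bound site.

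The sequence that matters for Xbp1 lies within its mRNA. IRE1 removes 26 bases, a number not divisible by 3, so that the reading frame behind them shifts and the active factor is made. In the annotated transcript Xbp1-201 (2129 bases, GENCODE M21), removal of bases 818 to 843, in capitals within bases 798 to 863, gives the spliced sequence. The letters CAG stand both just before that stretch and at its end. Removal of a stretch shifted back by these letters gives the same product, so the capitals do not mark the exact cut sites.
Xbp1-201: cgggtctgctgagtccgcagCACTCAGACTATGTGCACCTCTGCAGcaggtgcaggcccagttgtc
The deposited values are 1 number per gene, so the spliced and unspliced forms are summed in every Xbp1 value given here.

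Libraries held 2078223 to 9944952 counts, recovered from the steps in the values, and each of the 10 genes had 63 to 2594 counts in every library. Each value is a normalized count, the library's count after division by the authors' scaling factor for that library. The reporter separated the groups: eGFP stood at 26.3 to 86.5 on day 0, 588 to 695 in TGFβ-iTreg cells and 262 to 462 in mTO-iTreg cells, while Foxp3 stood at 0 to 8.77, 14.8 to 19.7 and 37.2 to 81.0. All 9 T cell markers found in the table were above 0 in every library, and they summed to 30264 to 32678 on day 0, 18654 to 21054 in TGFβ-iTreg and 21847 to 25749 in mTO-iTreg libraries. Against day 0, 0 of the 9 were higher and 7 lower in TGFβ-iTreg cells (18.6% of all tested genes called). In mTO-iTreg cells 2 were higher and 5 lower (33.9%). Markers of other cells were present at low or uneven levels, and their part in the results below was not tested. The 9 B and plasma cell markers in the table summed to 15.8 to 86.5 on day 0, 38.0 to 93.5 in TGFβ-iTreg and 108 to 194 in mTO-iTreg libraries. The largest of them in the mTO-iTreg libraries was Cd79b, at 48.5 to 73.0, against 0 to 7.38 on day 0 and 4.45 to 14.9 in TGFβ-iTreg libraries. Mzb1, an ER protein of plasma cells, was at 0 on day 0, 0.988 to 2.46 in TGFβ-iTreg and 16.6 to 43.7 in mTO-iTreg libraries. Igj, the antibody joining chain of plasma cells, was at 0, 0 and 0.664 in the mTO-iTreg libraries. Of the 5 tested markers, 2 were higher and 0 lower in mTO-iTreg cells against day 0 (33.9% of all tested genes called). Against TGFβ-iTreg cells the counts were again 2 and 0 (26.6%). Antigen-presenting and myeloid markers (9 in the table) summed to 906 to 7710, 208 to 482 and 1833 to 2991, with the highest sum in day 0 replicate 3. In the mTO-iTreg libraries H2-Eb1 made up most of that sum, at 1410 to 2331, while Itgax was at 0 and Fcer1g and Tyrobp at 0 to 8.87. Of the 8 tested markers, 1 was higher and 4 lower in mTO-iTreg cells than on day 0 (33.9% of all tested genes called). Between the induced groups 2 were higher and 0 lower in mTO-iTreg cells (26.6%). Epithelial markers (7 in the table) summed to 18.8 to 24.3, 135 to 141 and 43.7 to 125. Epcam was the largest of them in the induced groups, at 74.1 to 113 in TGFβ-iTreg and 21.1 to 89.0 in mTO-iTreg libraries. Krt18, Vil1 and Muc2 stood at 0 to 4.65 in every library. Of the 3 tested markers, 2 were higher and 0 lower in each induced group against day 0 (18.6% and 33.9% of all tested genes called). No call was made between the induced groups (26.6%). Markers of CD8 T and natural killer cells (4 in the table) summed to 142 to 284, 273 to 384 and 716 to 866. Of the last, Nkg7 made up most of the mTO-iTreg sums, at 599 to 740 against 10.8 to 96.0 on day 0, while Cd8a (11.8 to 18.4 against 10.8 to 29.8) and Cd8b1 (78.4 to 107 against 109 to 121) were not above their day 0 range and Klrb1c was at 0. The library codes in the labels have 1 form for the day 0 and TGFβ-iTreg libraries and another for the mTO-iTreg libraries. What the codes stand for is not given, and any handling that goes with them cannot be told apart from the mTO-iTreg group.

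Xbp1, the transcription factor of the IRE1 arm, had the widest difference between 2 groups among the 10 genes. It was at 296, 301 and 337 normalized counts on day 0, at 389, 637 and 740 in TGFβ-iTreg cells and at 1245, 1424 and 1627 in mTO-iTreg cells. The 3 groups did not overlap, and TGFβ-iTreg replicate 1 lay nearest to day 0. The mean rose from 311 ± 21.9 (SD, n = 3) on day 0 to 1432 ± 191 (SD, n = 3) in mTO-iTreg cells, a 4.60-fold difference, or 2.19 ± 0.21 (SE) in log2(normalized count + 1), with an adjusted p of 4.8e-06 by limma's moderated test with Benjamini-Hochberg adjustment over all 10983 genes, the test used throughout with a threshold of 0.05. Between the 2 induced groups Xbp1 was 2.43-fold higher in mTO-iTreg cells (1.32 ± 0.21, adjusted p = 0.00044). TGFβ-iTreg cells stood 1.89-fold above day 0 (0.87 ± 0.21, adjusted p = 0.011), a call that ended without TGFβ-iTreg replicate 3 (0.68, adjusted p = 0.052) and without a mean-variance trend (adjusted p = 0.071). Xbp1 made up 4.39 to 4.97% of the normalized counts of the 10 genes on day 0, 5.998 to 12.1% in TGFβ-iTreg cells and 14.9 to 20.1% in mTO-iTreg cells. In bulk RNA, fewer cells of a type and less RNA per cell cannot be told apart, which holds for every level here. Xbp1 lies on chromosome 11, 5520659 to 5525893 (GRCm38, the build for all coordinates given).

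**Figure D1:**
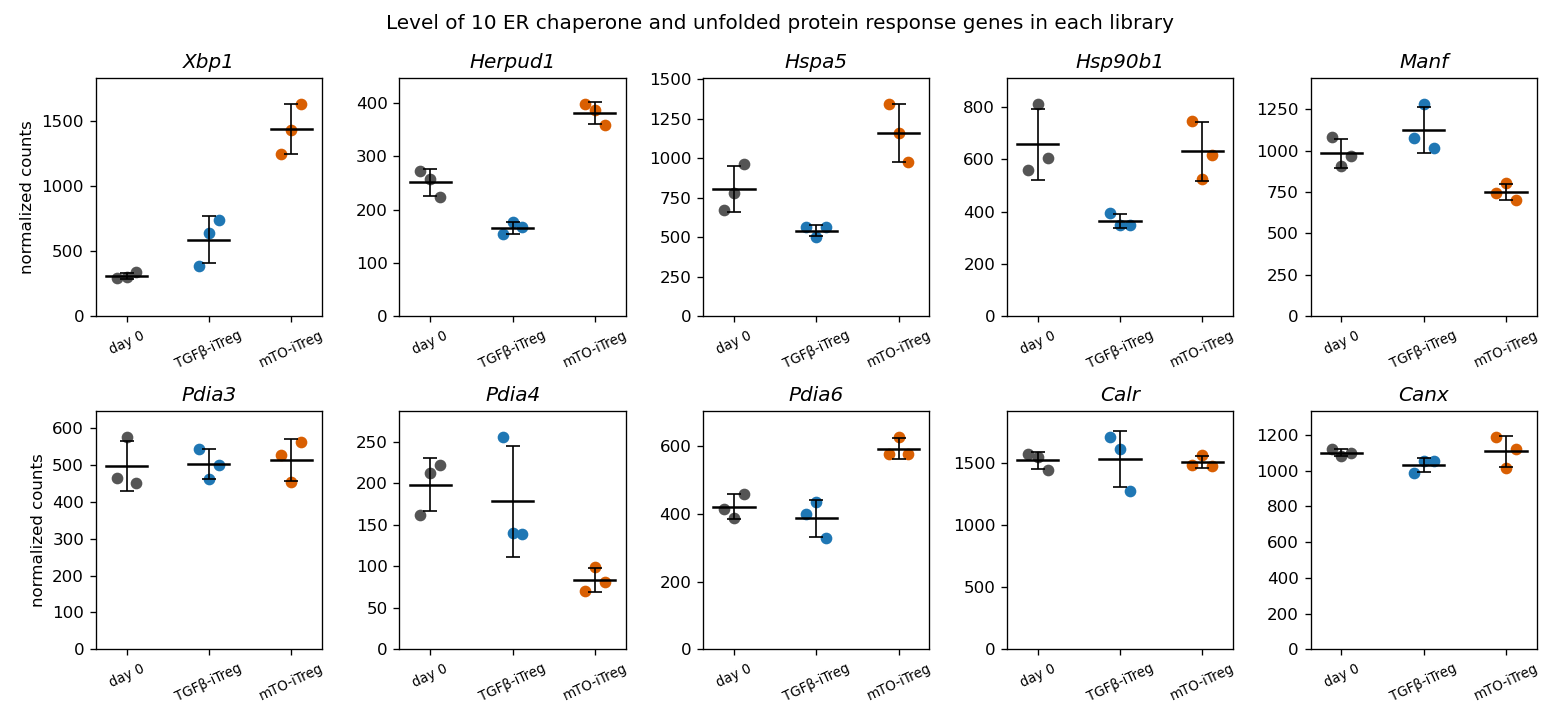
Normalized counts (linear axes from 0) of the 10 genes in the 3 groups; points are libraries, horizontal lines group means and bars SD (n = 3). Xbp1 climbs from about 311 to 1432 while the group means of Calr lie between 1512 and 1538, and Pdia4 and Manf are lowest in the mTO-iTreg libraries.

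Hspa5, the main chaperone of the ER lumen, was lower than day 0 in TGFβ-iTreg cells and higher than day 0 in mTO-iTreg cells. Its values were 675, 777 and 961 normalized counts on day 0, 563, 500 and 563 in TGFβ-iTreg cells and 1343, 1159 and 978 in mTO-iTreg cells. No groups overlapped, but the lowest mTO-iTreg library (978) stood just above the highest day 0 library (961). The 2 induced groups differed 2.14-fold (1.09 ± 0.16 log2, adjusted p = 0.00029), and this call held under all 22 alternative settings. Against day 0, the fall to a mean of 542 ± 36.1 (SD, n = 3) in TGFβ-iTreg cells came to -0.56 ± 0.16 (adjusted p = 0.030) and the rise to 1160 ± 182 (SD, n = 3) in mTO-iTreg cells to 0.53 ± 0.16 (adjusted p = 0.022). Both calls against day 0 ended in several fits that left out a library, and the cause of this was not tested. The fall ended under 10 of 22 alternatives, among them leaving out day 0 replicate 2 or 3 or any 1 TGFβ-iTreg replicate (adjusted p = 0.059 to 0.11) and scaling the libraries to equal totals (-0.31, adjusted p = 0.23). The rise ended under 7, among them leaving out day 0 replicate 1 or 2 or mTO-iTreg replicate 1 or 2 (adjusted p = 0.052 to 0.096) and the use of limma-voom (adjusted p = 0.064). The gene lies on chromosome 2, 34771970 to 34777547.

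Hsp90b1, the ER form of HSP90 and a chaperone of integrins and Toll-like receptors, was lower in TGFβ-iTreg cells than in both other groups. It was at 558, 812 and 603 normalized counts on day 0, at 396, 351 and 349 in TGFβ-iTreg cells and at 748, 527 and 616 in mTO-iTreg cells. Every TGFβ-iTreg library was below every other library, while day 0 and mTO-iTreg values overlapped. TGFβ-iTreg cells were lower than day 0 by 1.80-fold (-0.83 ± 0.18 log2, adjusted p = 0.0061) and mTO-iTreg cells were 1.73-fold above TGFβ-iTreg cells (0.77 ± 0.18, adjusted p = 0.0062), and both calls held under all 22 alternatives. Between mTO-iTreg and day 0 cells the difference was -0.06, with a 95% confidence interval of -0.44 to 0.33 (adjusted p = 0.83). Hsp90b1 lies on chromosome 10, 86690209 to 86705509, where its exons overlap those of 1810014B01Rik, Gm15344 and Gm25745, and how the counting treated strand is not given in the sources used here.

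Herpud1, an ER membrane protein that helps hand misfolded proteins to the ubiquitin ligase Hrd1, followed Hspa5. Values were 272, 258 and 224 normalized counts on day 0, 155, 176 and 167 in TGFβ-iTreg cells and 398, 387 and 359 in mTO-iTreg cells. The 3 groups were well apart, with the lowest mTO-iTreg library at 359 and the highest day 0 library at 272. mTO-iTreg cells were 2.30-fold above TGFβ-iTreg cells (1.20 ± 0.18 log2, adjusted p = 0.00025), under all 22 alternatives. The difference from day 0 was 0.60 ± 0.18 in mTO-iTreg cells (adjusted p = 0.016, and 0.061 without day 0 replicate 3 or 0.056 without mTO-iTreg replicate 1). In TGFβ-iTreg cells it was -0.59 ± 0.18 (adjusted p = 0.032), a call that ended under 11 of 22 alternatives, among them leaving out day 0 replicate 1 or 2 or any 1 TGFβ-iTreg replicate (adjusted p = 0.058 to 0.096) and equal totals (-0.34, adjusted p = 0.19). Herpud1 lies on chromosome 8, 94386438 to 94395377.

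Manf, which is itself a target of the unfolded protein response, went the other way. It was at 1079, 906 and 964 normalized counts on day 0, at 1075, 1281 and 1012 in TGFβ-iTreg cells and at 745, 801 and 703 in mTO-iTreg cells. Every mTO-iTreg library lay below every other library, and day 0 and TGFβ-iTreg values overlapped. Relative to TGFβ-iTreg cells the mean of 750 ± 49.2 (SD, n = 3) in mTO-iTreg cells was lower by 1.497-fold (-0.58 ± 0.14 log2, adjusted p = 0.0068, and 0.0502 without a mean-variance trend). The fall from day 0 (-0.39 ± 0.14, adjusted p = 0.041) ended under 11 of 22 alternatives, among them equal totals (-0.16, adjusted p = 0.39) and leaving out day 0 replicate 1 or 3, TGFβ-iTreg replicate 1 or mTO-iTreg replicate 1 or 3 (adjusted p = 0.052 to 0.14). The difference of TGFβ-iTreg cells from day 0 was 0.19 (adjusted p = 0.37), and 0.44 at equal totals (adjusted p = 0.041). Manf lies on chromosome 9, 106838312 to 106891979, and its exons overlap those of Dcaf1, Rbm15b and 4930524O07Rik.

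The protein disulfide isomerases split 3 ways. Pdia6, which reduces disulfides and attenuates IRE1 signalling, was at 414, 387 and 460 normalized counts on day 0, at 398, 436 and 328 in TGFβ-iTreg cells and at 576, 627 and 576 in mTO-iTreg cells. All mTO-iTreg libraries were above all others, and the other 2 groups overlapped. It was 1.53-fold higher in mTO-iTreg than in TGFβ-iTreg cells (0.62 ± 0.16 log2, adjusted p = 0.010, and 0.0501 without TGFβ-iTreg replicate 3). The rise over day 0 was 1.41-fold (0.50 ± 0.16, adjusted p = 0.025) and ended under 8 of 22 alternatives, among them leaving out day 0 replicate 1 or 2 or any 1 mTO-iTreg replicate (adjusted p = 0.0503 to 0.080) and limma-voom (adjusted p = 0.084). Pdia6 lies on chromosome 12, 17266545 to 17284770, and its exons overlap those of Atp6v1c2.

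Pdia4 (ERp72), a further isomerase that is found in complexes with Hspa5, fell where Pdia6 rose. It was at 161, 212 and 222 normalized counts on day 0, at 256, 140 and 139 in TGFβ-iTreg cells and at 70.3, 99.3 and 81.7 in mTO-iTreg cells. Again the mTO-iTreg libraries stood apart from all others, and TGFβ-iTreg replicate 1 was the highest of the 9 libraries. mTO-iTreg cells were lower than day 0 by 2.37-fold (-1.24 ± 0.28 log2, adjusted p = 0.0041), under all 22 alternatives. The difference from TGFβ-iTreg cells, -1.03 ± 0.28 (adjusted p = 0.016), was -0.74 without TGFβ-iTreg replicate 1 (adjusted p = 0.080) and -0.91 without mTO-iTreg replicate 1 (adjusted p = 0.057). Between TGFβ-iTreg and day 0 cells the difference was -0.20, with an interval of -0.81 to 0.40. Pdia4 had 79 to 281 counts per library, the lowest total of the 10 genes. It lies on chromosome 6, 47796141 to 47813430, where the microRNA gene Mir704 overlaps it.

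Pdia3 (ERp57), the isomerase that works with the lectins Calr and Canx and in the loading of MHC class I, was near 500 normalized counts everywhere. It was at 465, 575 and 450 on day 0, at 544, 461 and 500 in TGFβ-iTreg cells and at 525, 452 and 563 in mTO-iTreg cells. All groups overlapped. The differences were 0.02 (95% interval -0.32 to 0.36) for TGFβ-iTreg against day 0, 0.05 (-0.29 to 0.39) for mTO-iTreg against day 0 and 0.03 (-0.31 to 0.37) between the induced groups, so that a change of the size seen for Xbp1 or Pdia4 in mTO-iTreg cells lies outside each interval. Pdia3 lies on chromosome 2, 121413775 to 121438687, and its exons overlap those of Catsper2.

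The lectins that work with Pdia3 did not pass the test either. Calr, calreticulin, had 1579, 1554 and 1450 normalized counts on day 0, 1714, 1619 and 1282 in TGFβ-iTreg cells and 1491, 1566 and 1477 in mTO-iTreg cells. TGFβ-iTreg libraries held both its highest and its lowest value. Its differences were 0.00 (-0.27 to 0.27), -0.01 (-0.29 to 0.26) and -0.01 (-0.29 to 0.26) in the same order of comparisons. Canx, calnexin, the membrane-bound lectin, had 1119, 1081 and 1098 on day 0, 989, 1057 and 1057 in TGFβ-iTreg cells and 1189, 1017 and 1122 in mTO-iTreg cells. Its TGFβ-iTreg values lay below those of day 0 without overlap, but by -0.09 (-0.34 to 0.16, adjusted p = 0.65), and its other differences were 0.01 (-0.24 to 0.26) and 0.10 (-0.15 to 0.35). Calr lies on chromosome 8, 84841850 to 84846934, and Canx on chromosome 11, 50293961 to 50325673.

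Counted together, the 10 genes moved in different directions. Between TGFβ-iTreg and day 0 cells 1 was called higher (Xbp1), 3 lower (Hspa5, Hsp90b1 and Herpud1) and 6 neither, against a background of 18.6% of all tested genes called (9.78% higher and 8.8% lower). Between mTO-iTreg and day 0 cells 4 were higher (Xbp1, Herpud1, Hspa5 and Pdia6), 2 lower (Pdia4 and Manf) and 4 neither, against 33.9% (19.4% higher and 14.5% lower). Between mTO-iTreg and TGFβ-iTreg cells 5 were higher (Xbp1, Herpud1, Hspa5, Hsp90b1 and Pdia6), 2 lower (Pdia4 and Manf) and 3 neither, against 26.6% (14.9% higher and 11.8% lower). Libraries of the compared groups did not overlap for 5, 6 and 7 of the genes, beside 35.9%, 46.2% and 44.6% of all tested genes. The members' median differences were -0.11, 0.03 and 0.36, and those of all tested genes -0.02, 0.09 and 0.13. Any 2 of the 3 comparisons share a group of libraries, so none is separate support for another. The share of calls against day 0 that pointed upward over all genes depended on scaling, 52.6% for TGFβ-iTreg and 57.1% for mTO-iTreg as deposited but 75.4% and 70.4% at equal totals, where the medians of all genes moved to 0.22 and 0.31.

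**Figure D2:**
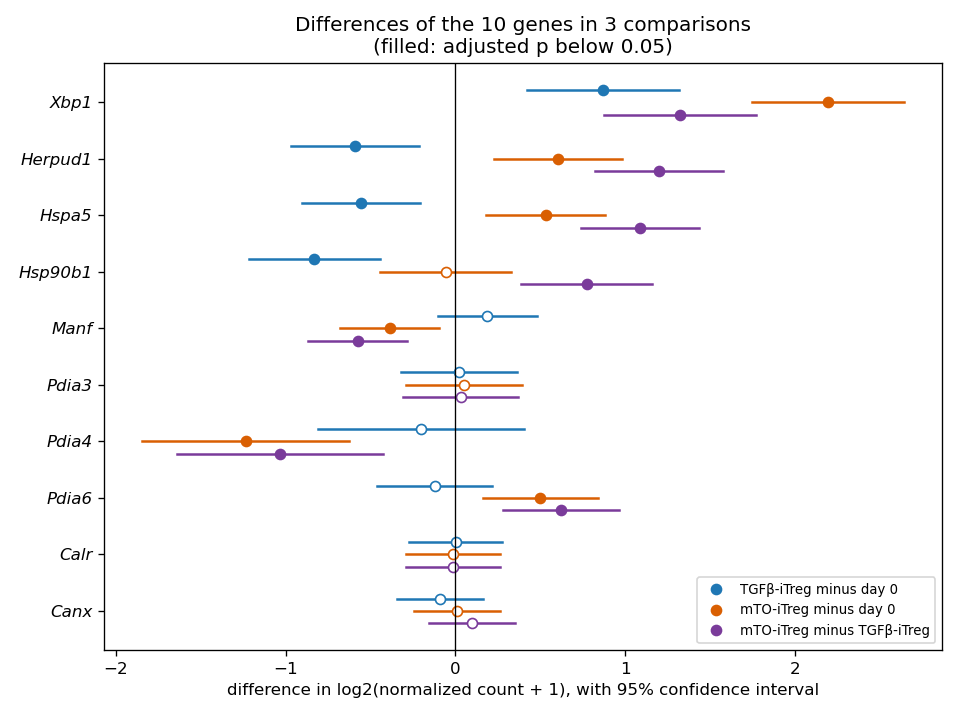
Differences in log2(normalized count + 1) of the 10 genes in the 3 comparisons, with 95% confidence intervals from limma; filled points passed the threshold. Hspa5 and Herpud1 lie left of 0 for TGFβ-iTreg against day 0 (-0.56 and -0.59) and right of it for mTO-iTreg against day 0 (0.53 and 0.60), while Manf and Pdia4 lie on the left for mTO-iTreg cells.

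The balance between the genes differed as well. Hspa5 exceeded Pdia4 by 3.66 to 4.34 times in the day 0 libraries, by 2.202 to 4.05 times in the TGFβ-iTreg libraries and by 11.7 to 19.1 times in the mTO-iTreg libraries, in units of normalized counts of 3′ reads. The ratio of Hspa5 to Manf was 0.626 to 0.997, 0.391 to 0.556 and 1.39 to 1.80. In both of these ratios, whose denominators are the genes called lower in mTO-iTreg cells, the mTO-iTreg libraries were above all others. The ratio of Hspa5 to Calr, which passed the test in no comparison, was 0.428 to 0.663, 0.309 to 0.439 and 0.662 to 0.901, so that the lowest mTO-iTreg library (0.6623) lay within the day 0 range (highest 0.6630). None of the ratios depends on the scaling of a library. Summed, the 10 genes had 6619 to 6863 normalized counts on day 0, 6137 to 6659 in TGFβ-iTreg libraries and 8061 to 8330 in mTO-iTreg libraries. As a share of each library's total, where the order of the first 2 groups is the opposite, they took 0.110 to 0.120% of the normalized counts on day 0, 0.125 to 0.136% in TGFβ-iTreg cells and 0.159 to 0.163% in mTO-iTreg cells. Both the sum and the share include Xbp1, which alone stood at 296 to 337 on day 0 and 1245 to 1627 in mTO-iTreg libraries. They therefore do not describe the chaperones alone.

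Across the 9 libraries, the pattern of Hspa5 was most like that of Ptplad1 (Pearson's r = 0.98), Mgat4a (0.97), Tnrc6b (0.96), Yy1 (0.96), Upf3b (0.95), Prrc2c (0.95), Poli (0.95) and S100a11 (0.94) among 6844 genes with a mean of at least 50. The libraries fall into 3 groups, so these values describe group differences and carry no test. Among the other 9 genes, Herpud1 ranked highest (r = 0.89, rank 73), followed by Pdia6 (0.82, rank 253) and Hsp90b1 (0.75, rank 471). Manf was near the other end (-0.87, rank 6747), and Calr (-0.14) and Pdia3 (0.04) had little relation. Xbp1, the transcription factor, was at 0.51, and its lowest correlation among the 10 was with Pdia4 (-0.90).

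Around these 10 genes, 131 others of ER protein folding and stress were counted in 8 lists, of which 128 were tested. In TGFβ-iTreg against day 0 cells 11 were higher and 11 lower (17.2% called), in mTO-iTreg against day 0 cells 30 and 22 (40.6%), and between the induced groups 25 and 20 (35.2%), beside the 18.6%, 33.9% and 26.6% of all tested genes. The median difference over the lists between the induced groups was -0.02, and 0.13 over all genes. No list was tested as a set, and the lists were drawn up with results of these data known.

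The sensors upstream of Xbp1 and the chaperones were low in number of counts. Ern1, the gene of IRE1, was at 0 in all day 0 libraries, in 2 of 3 TGFβ-iTreg libraries and in 1 of 3 mTO-iTreg libraries and at most 5.31 normalized counts, and was not tested. Atf6 was at 16.1 to 31.6 on day 0, 22.7 to 27.1 in TGFβ-iTreg cells and 35.4 to 70.9 in mTO-iTreg cells (mTO-iTreg against day 0, 1.01 ± 0.47, adjusted p = 0.11). Eif2ak3, the gene of PERK, was at 40.3 to 54.9, 62.2 to 103 and 40.3 to 63.4 and passed the test in no comparison. The list of sensors, their relatives and the proteases that cut them held 8 tested genes. In mTO-iTreg against day 0 cells 1 rose and 2 fell (33.9% of all tested genes called). Nfe2l1, an ER-bound transcription factor of proteasome genes, rose (1.04, adjusted p = 0.0030). Atf6b, a relative of Atf6, and Creb3 fell (-1.07 and -1.09, adjusted p = 0.022 and 0.013). Ern1, Atf6 and Eif2ak3 are named for their role, with their values known.

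Of 14 partners of Hspa5, 1 was higher and 1 lower in TGFβ-iTreg against day 0 cells (18.6% of all tested genes called), 0 and 1 in mTO-iTreg against day 0 cells (33.9%), and 2 and 2 between the induced groups (26.6%). Their medians were -0.03, 0.15 and 0.14, and those of all tested genes -0.02, 0.09 and 0.13. Dnajc3, a co-chaperone of Hspa5, was at 430 ± 23.5 (SD, n = 3) on day 0, 223 ± 40.7 in TGFβ-iTreg cells (-0.96, adjusted p = 0.0022) and 404 ± 23.6 in mTO-iTreg cells (0.87 above TGFβ-iTreg, adjusted p = 0.0027). Sil1, the nucleotide exchange factor of Hspa5, was higher in mTO-iTreg than TGFβ-iTreg cells (2.00, adjusted p = 0.026). Dnajb9, a co-chaperone that is a known XBP1 target, was at 92.8 ± 2.94 on day 0, 45.4 ± 7.70 in TGFβ-iTreg cells (-1.03, adjusted p = 0.071) and 39.98 ± 13.7 in mTO-iTreg cells (-1.26, adjusted p = 0.018), and both induced groups lay below day 0 without overlap. Dnajb11 and Sdf2 were lower in mTO-iTreg than in TGFβ-iTreg cells (-0.69 and -0.66, adjusted p = 0.040 and 0.032), and Sdf2 was higher in TGFβ-iTreg than in day 0 cells (0.88, adjusted p = 0.0098).

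Of 18 other disulfide and proline isomerization enzymes, 2 were higher and 4 lower in mTO-iTreg than in TGFβ-iTreg cells. Against day 0 cells the counts were 3 and 5. The shares of all tested genes called were 26.6% and 33.9%. Ero1l, the oxidase that recharges the isomerases, was at 240 ± 14.8 (SD, n = 3) on day 0, 156 ± 28.9 in TGFβ-iTreg cells (-0.63, adjusted p = 0.040) and 293 ± 27.4 in mTO-iTreg cells (0.92 above TGFβ-iTreg, adjusted p = 0.0038). Ppic, cyclophilin C, was at 74.7 ± 20.4, 354 ± 146 and 19.6 ± 1.77 normalized counts in the 3 groups (2.18 for TGFβ-iTreg against day 0, adjusted p = 0.00075, and -4.03 between the induced groups, adjusted p = 3.8e-06). Ppib, cyclophilin B, was lower in mTO-iTreg cells than in either other group (-1.46 against day 0 and -1.38 against TGFβ-iTreg cells), as was Tmx3 against day 0 (-1.30) and Sep15, a selenoprotein partner of the glycoprotein sensor Uggt1, against TGFβ-iTreg cells (-1.06). Prdx4, an ER peroxidase, rose in TGFβ-iTreg cells against day 0 (1.11) and Tmx3 fell (-0.70). Selm rose in mTO-iTreg cells against day 0 (4.18, adjusted p = 0.016), from a mean of 2.34 ± 4.05 to 52.3 ± 54.9.

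In the N-glycan cycle, which Calr and Canx serve, 17 genes were tested. Between the induced groups 3 were higher and 4 lower (26.6% of all tested genes called). In mTO-iTreg against day 0 cells 2 were higher and 5 lower (33.9%). The 2 subunits of glucosidase II, which trims the glucose that the lectins read, went apart: the catalytic Ganab was at 560 ± 50.1 (SD, n = 3) on day 0, 534 ± 23.6 in TGFβ-iTreg cells and 240 ± 18.2 in mTO-iTreg cells (-1.21 against day 0), while the regulatory Prkcsh stood at 250 ± 54.0, 273 ± 44.0 and 471 ± 131 (0.89 against day 0, adjusted p = 0.011). Krtcap2, of the oligosaccharyltransferase, was at 2654 ± 94.5, 2729 ± 375 and 5731 ± 457 (1.11 against day 0). Its catalytic partner Stt3a was lower in mTO-iTreg than TGFβ-iTreg cells (-0.70, adjusted p = 0.044). Man2a1, a Golgi mannosidase, was lower than day 0 in both induced groups (-0.79 and -1.02), and Dad1 was lower in TGFβ-iTreg cells (-0.52, adjusted p = 0.010).

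Among 22 tested genes of ER-associated degradation, the route Herpud1 serves, 7 were higher and 3 lower in mTO-iTreg against day 0 cells. Counts were 2 and 0 in TGFβ-iTreg against day 0 cells, and 3 and 3 between the induced groups. The matching shares called over all tested genes were 33.9%, 18.6% and 26.6%. Sel1l, the scaffold of the Hrd1 ligase, was at 119 ± 21.9 (SD, n = 3), 152 ± 36.8 and 268 ± 10.1 normalized counts (1.18 in mTO-iTreg against day 0, adjusted p = 0.0019). Derl3, a channel component and XBP1 target, was at 0 in all day 0 libraries, 4.94 to 10.9 in TGFβ-iTreg and 16.7 to 50.5 in mTO-iTreg libraries. Ube2j2, a ubiquitin-conjugating enzyme, and Ubxn4, an adaptor of the p97 ATPase, were higher in mTO-iTreg than in TGFβ-iTreg cells (1.16 and 0.93), and Edem3, a mannosidase that marks glycoproteins for degradation, was lower (-1.06). Edem2 rose in TGFβ-iTreg against day 0 cells (0.66, adjusted p = 0.044).

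Of 22 genes for entry into the ER, 3 were higher and 4 lower between the induced groups (26.6% of all tested genes called). Against day 0 cells, 6 were higher and 2 lower in mTO-iTreg cells (33.9%), and 3 and 1 in TGFβ-iTreg cells (18.6%). Srp72 and Srp54a, of the signal recognition particle, were higher in mTO-iTreg than in TGFβ-iTreg cells (1.03 and 1.34), as was Sec63, which couples Hspa5 to the translocon (0.70), and Srp9 was lower (-0.62). Ssr4 rose in both induced groups over day 0 (0.97 with TGFβ and 0.75 with organoids), Spcs2 and Srp9 in TGFβ-iTreg cells (0.70 and 0.52), where Sec62 fell (-0.63). Sec11a, a signal peptidase subunit, fell in mTO-iTreg cells (-0.79).

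In the PERK and ATF4 arm, 9 of 12 genes were higher and 1 lower in mTO-iTreg than in TGFβ-iTreg cells (median 1.75). Against day 0 cells, 8 were higher and 1 lower in mTO-iTreg cells, and 1 and 2 in TGFβ-iTreg cells. Over all tested genes, 26.6%, 33.9% and 18.6% were called in these comparisons. Ddit3, the transcription factor CHOP, was at 93.9 ± 8.44 (SD, n = 3) on day 0, 80.8 ± 8.23 in TGFβ-iTreg cells and 419 ± 99.5 in mTO-iTreg cells (2.34 between the induced groups). Atf5, Sesn2 and Trib3, all known ATF4 or CHOP targets, were higher in mTO-iTreg cells than on day 0 (3.62, 4.67 and 2.44). Sesn2 stood at 0, 0 and 1.05 on day 0 and at 15.9 to 62.7 in mTO-iTreg libraries. Its difference therefore depends on the 1 added before the log. Trib3 ranged from 48.4 to 197 in mTO-iTreg libraries, and replicate 1 (48.4) was near the highest TGFβ-iTreg value (46.4). Chac1 was at 57.8 to 137 in mTO-iTreg libraries, at 0 in all day 0 libraries and at 0, 6.10 and 0 in TGFβ-iTreg libraries. Atf4 mRNA itself was at 686 ± 127, 444 ± 36.9 and 1504 ± 182. Ppp1r15a, which restores translation, was highest on day 0 (1040 ± 46.9, against 99.4 ± 47.8 after TGFβ and 305 ± 25.6 after co-culture). Many of these genes also respond to amino acid supply through other kinases, so the list is not specific to the ER.

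Among 15 tested genes of ER calcium and cell death, 2 were higher and 2 lower between the induced groups. In mTO-iTreg against day 0 cells 3 were higher and 3 lower. Beside these counts, 26.6% and 33.9% of all tested genes were called. The calcium pump Atp2a3 was lower in mTO-iTreg cells than in TGFβ-iTreg cells (132 ± 44.2 against 568 ± 80.1, SD, n = 3, -2.15), and the calcium channel Itpr1 was higher (161 ± 43.1 against 46.5 ± 10.96, 1.76) while Itpr3 was lower (-0.99). Sdf4, a calcium-binding protein of the Golgi, was at 1802 ± 136 in mTO-iTreg, 963 ± 96.7 in TGFβ-iTreg and 766 ± 26.7 in day 0 cells. Bax, a death effector, was higher in mTO-iTreg than in day 0 cells (1.26, adjusted p = 0.020). The store sensor Stim1 fell in TGFβ-iTreg cells (-1.06, adjusted p = 0.043), as did Itpr1 and Itpr2 (-0.997 and -0.704), and Rcn1, a calcium-binding protein of the ER, rose in both induced groups (1.29 and 1.38 against day 0).

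**Figure D3:**
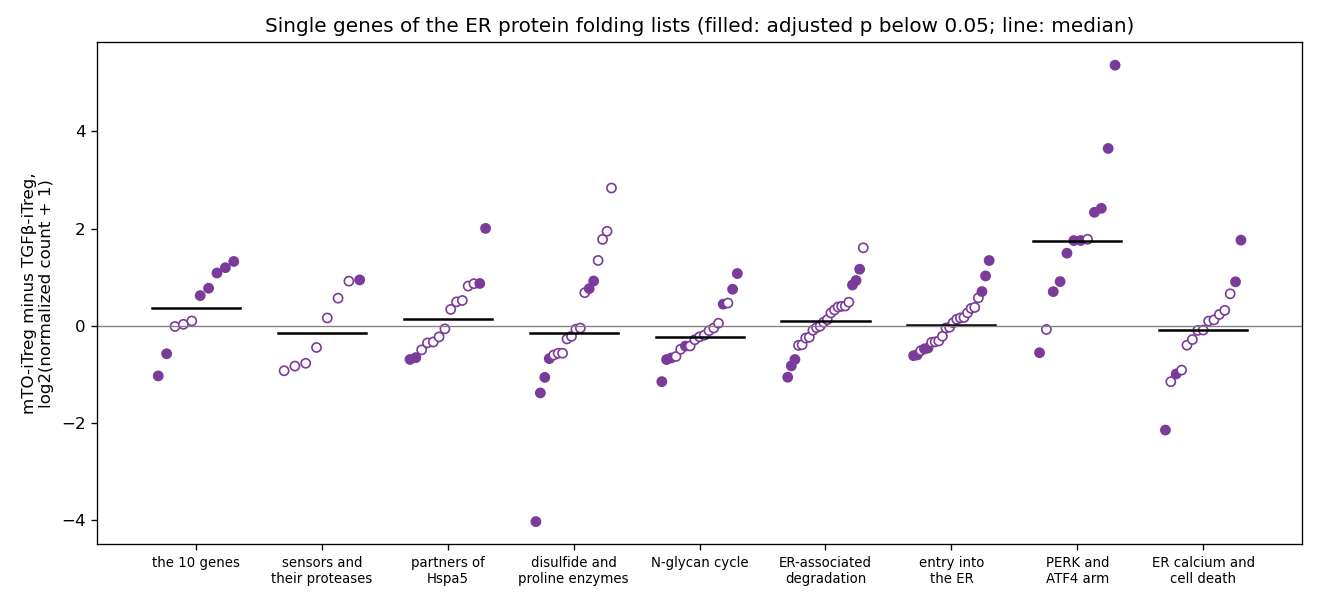
Difference between mTO-iTreg and TGFβ-iTreg cells in log2(normalized count + 1) for every tested gene of the 10 and of the 8 wider lists; filled points passed the threshold and lines are medians. The PERK and ATF4 arm has a median of 1.75, and the other 7 wider lists have medians between -0.23 and 0.14, with filled points on both sides in 6 of them and 1 filled point, above 0, among the sensors and their proteases.

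Set against the promoters printed above, genes with a match stood on both sides of the threshold, and so did genes without one. Of the 6 genes with an ERSE or ERSE-II match, Hspa5, Hsp90b1, Pdia6 and Herpud1 were higher in mTO-iTreg than in TGFβ-iTreg cells, and Calr and Canx, each with a full ERSE 162 and 145 bases before the start, did not pass the test (-0.01 and 0.10). The match of Hspa5 began 65, that of Pdia6 98, that of Herpud1 52 and those of Hsp90b1 212 and 107 bases before the start. Of the 3 without an exact match, Xbp1 was higher, Pdia4 lower and Pdia3 neither. Over the whole table, 14 tested genes had an ERSE in this window, of which 4 were higher and 0 lower between the induced groups (median 0.65, and 0.12 over all tested genes with a promoter window), where 14.9% of those genes were higher and 11.8% lower. In TGFβ-iTreg against day 0 cells 1 was higher and 4 lower (median -0.30, with 9.8% and 8.44% of those genes called), and in mTO-iTreg against day 0 cells 3 were higher and 1 lower (median -0.04, and 0.10 over those genes, with 19.2% and 14.4% called). Of the 8 tested genes with ERSE-II, 2 were higher and 2 lower between the induced groups (14.9% and 11.8% of those genes). The 14 include 5 of the 10 genes, so these counts are not separate from those above.

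**Figure D4:**
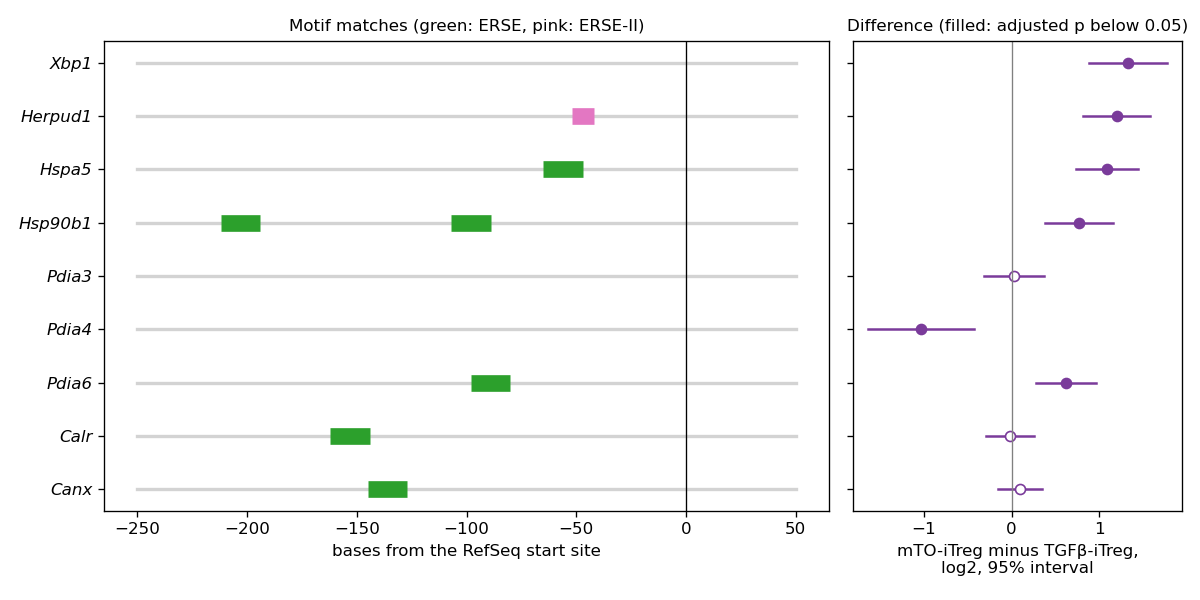
Left, ERSE and ERSE-II matches by distance in bases from the RefSeq start for the 9 genes with a promoter window (grey lines). Right, the difference between mTO-iTreg and TGFβ-iTreg cells in log2(normalized count + 1) with its 95% confidence interval. Calr (-0.01) and Canx (0.10) carry an exact match and lie near 0. Pdia4 (-1.03) holds no exact match and lies left of 0.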

How the data were processed

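The deposited table holds normalized counts for 14912 genes in 9 libraries, which the authors computed with DESeq2 after aligning reads with BWA to mm10, per the submitters' processing notes; no source used here gives their versions, the annotation or the use of strand. Values were whole multiples of 1 step per library (100% within 0.1 of a whole number), so counts and depth (2078223 to 9944952 counts per library, 1 count being 0.494 to 2.69 normalized counts) were recovered. Precision is limited by depth and by 3 libraries per group. The labels do not say whether libraries of a group came from separate mice. The p-values set each group difference against the spread between libraries, which may be technical.

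The 10983 genes that reached 5 normalized counts in 3 or more libraries were tested with limma 3.58.1 (R 4.3.3) on log2(normalized count + 1), with 3 group means, a mean-variance trend and Benjamini-Hochberg adjustment over all of them, at 0.05. The log scale understates changes of low genes. The procedure was also run on simulated counts with a fixed dispersion and far fewer changed genes than were called here. That run does not give error rates for these data. The 10 genes, the wider lists (of each, up to 4 called genes with the widest difference per comparison are named) and the marker lists were chosen with earlier results of these data known. Likeness to Hspa5 used genes with a mean of at least 50, without predicted models. Promoters and motifs came from RefSeq (GRCm38.p6), gene coordinates and the Xbp1 transcript from GENCODE M21. Alternatives covered the pseudocount, filter, scaling, trend, groups fitted, replicate block, each library left out, limma-voom on the recovered counts and both shallowest libraries of day 0 and TGFβ-iTreg left out together; the last 2 were added after the data were seen.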

Additional observations from a re-analysis of the deposited data

How the results depend on the processing

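Of 30 differences (10 genes in 3 comparisons), 17 were called, and 7 of these stayed called under all 22 alternatives: Hsp90b1 in TGFβ-iTreg against day 0, Pdia4 and Xbp1 in mTO-iTreg against day 0, and Hspa5, Hsp90b1, Herpud1 and Xbp1 between the induced groups. The other 10 lost the call under at least 1 alternative and 0 called differences changed sign. Depth (63 counts for Herpud1 in the shallowest library) and 3 libraries per group limit what can be called near a 1.5-fold change, and the cause of each change of call was not tested.

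For TGFβ-iTreg against day 0, the number of the 10 genes called was 2 at equal totals without mitochondrial genes and Rn45s, 1 without a trend, 2 by limma-voom, 2 without the shallowest day 0 and TGFβ-iTreg libraries, and 1 to 4 with each library left out. The number over all genes was 1355 without a trend and 1166 without those 2 libraries, against 2040. For mTO-iTreg against day 0 the members called were 3 without a trend, 3 without those 2 libraries, and 2 to 6 with each library left out. The planned edgeR test was not run, and limma-voom on the recovered counts took its place.

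The labels do not say whether the replicate numbers pair the libraries. Between libraries of the same number, correlations of the deviations from the group means ran from -0.05 to 0.06. With 3 libraries per group these values cannot settle whether same-numbered libraries share a source. With a replicate block 1938, 3670 and 2838 genes were called, and 4, 6 and 7 of the 10 genes.

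Signs changed only for differences that were near 0 and not called. With TMM factors these were Canx (-0.058) and Pdia3 (-0.018) in mTO-iTreg against day 0 and Pdia3 (-0.062) between the induced groups. At equal totals they were Canx (0.16), Pdia4 (0.044) and Pdia6 (0.12) in TGFβ-iTreg against day 0 and Hsp90b1 (0.17) and Calr (0.21) in mTO-iTreg against day 0, and without mitochondrial genes and Rn45s Canx (0.041), Pdia6 (0.0061), Hsp90b1 (0.064) and Calr (0.11). With quantile normalization Calr was 0.12 in mTO-iTreg against day 0 and 0.11 between the induced groups. By limma-voom Calr was -0.0078 in TGFβ-iTreg against day 0, Canx -0.064 in mTO-iTreg against day 0, and Canx -0.0098 and Pdia3 -0.044 between the induced groups. Without the shallowest day 0 and TGFβ-iTreg libraries Calr was -0.071 in TGFβ-iTreg against day 0 and 0.069 between the induced groups, and Hsp90b1 was 0.10 and Canx -0.0021 in mTO-iTreg against day 0. With each library left out, in TGFβ-iTreg against day 0 Calr ran from -0.083 to 0.13 and Pdia3 from -0.047 to 0.13. In mTO-iTreg against day 0 Hsp90b1 ran from -0.19 to 0.10, Calr from -0.052 to 0.0099, Canx from -0.041 to 0.071 and Pdia3 from -0.019 to 0.16. Between the induced groups Calr ran from -0.14 to 0.069 and Pdia3 from -0.039 to 0.12.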
